A study of Mus musculus with 8 samples.

Results

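The BCL2 family sets whether a cell keeps its mitochondrial outer membrane intact. Prosurvival proteins such as BCL-XL, BCL2, MCL1 and A1 hold the effectors BAX and BAK in check, and BH3-only proteins such as BIM, PUMA, NOXA and BID engage the prosurvival proteins or the effectors when a cell is stressed. In B cells, BCL-XL and A1 are known to be induced after activation through CD40, while MCL1 is needed for the survival of activated and germinal centre B cells.

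The members, 10 genes of this family chosen by name, were followed in mouse B cells with and without *Eif4a1*, which encodes the RNA helicase of the translation initiation complex. All 10 were found among the 53242 genes of the deposited tables. They comprised 4 prosurvival genes (*Bcl2l1*, *Bcl2*, *Mcl1* and *Bcl2a1b*), 2 effectors (*Bax* and *Bak1*) and 4 BH3-only genes (*Bcl2l11*, *Bbc3*, *Pmaip1* and *Bid*). The 4A1 KO mice were *Eif4a1* fl/fl with *Cd23*-cre and the control mice were *Eif4a1*+/+ with the same Cre, with 4 animals of each genotype, on a C57BL/6 background and aged 8 to 12 weeks. Both genotypes thus carried the Cre recombinase, which is driven by *Cd23* and acts from the immature stage of splenic B cells. Splenic B cells were activated for 24 h with 40 ng/ml IL4 on irradiated CD40LB cells, a fibroblast feeder line that expresses CD40 ligand and BAFF, and the feeders were depleted by antibody before RNA-seq. Male mice gave replicates 1 and 3 and female mice gave 2 and 4. Batch A of the experiment held replicates 1 and 2, and batch B held 3 and 4. Each 4A1 KO library therefore has a control of the same number, sex and batch.

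The study set replicate 1 of both genotypes aside for low viability, so the tests below used replicates 2 to 4 (n = 3 per genotype, 1 animal per library) and the values of replicate 1 are shown beside them. The 6 tested libraries held 38488341 to 43210858 counted reads, and replicate 1 held 39890141 in the control and 31727557 in the 4A1 KO. *Eif4a1* itself was at 825, 748, 939 and 881 CPM (counts scaled to a library of a fixed size) in controls 1 to 4 and at 596, 556, 641 and 689 CPM in 4A1 KO 1 to 4. The lowest control still exceeded the highest 4A1 KO library, with a log2 fold change of -0.44 (SE 0.05, edgeR adjusted p = 1.2e-04). By the study's methods, the floxed part of the gene covers only some of its exons. Counts per gene can include reads from the other exons, so they do not show how much intact transcript was left in 4A1 KO. All 6 B cell markers were detected in every library. Their summed level was 3519 to 3725 CPM in controls and 2879 to 3102 CPM in 4A1 KO. Of the 6, 3 were called decreased (*Cd79a*, *Cd79b* and *Cd22*), beside 13.7% of all genes tested, and *Pax5*, the most abundant marker, was not called. T cell markers summed to at most 0.0999 CPM, myeloid markers to 3.79 to 7.87 CPM in controls and 7.13 to 8.54 CPM in 4A1 KO, and 10 fibroblast markers to 10.1 to 47.6 CPM in controls and 15.4 to 29.6 CPM in 4A1 KO, with control 2 the highest. What part these differences play in the values below was not tested. RNA of bulk cells was sequenced, so a lower level cannot be told apart as fewer cells that express a gene or less RNA per cell.

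The BH3-only class is named after a short sequence feature, the BH3 core, so its presence among the members is a description and no test. Most members carry this core, in which a leucine is followed, after 3 residues, by glycine or alanine and then aspartate. A search of the translated reference coding sequences for that pattern found 1 match each in *Bcl2l1*, *Bcl2*, *Mcl1*, *Bax*, *Bak1*, *Bcl2l11*, *Bbc3* and *Bid*, 2 matches in *Pmaip1*, whose sequence is not printed, and no match in *Bcl2a1b*. The 18 coding bases are shown to let the 3 classes be compared, on the sense strand of GRCm39 from the leucine codon onwards, with the codons of the last pair of residues in capitals.
Bcl2l1: ctgagagaggcaGGCGAT
Bcl2: ctccgccgggctGGGGAT
Mcl1: ctgcggcgcgtgGGCGAC
Bax: ctccggcgaattGGAGAT
Bak1: cttgctctcatcGGAGAT
Bcl2l11: ctgcggcggatcGGAGAC
Bbc3: ctgcggcggatgGCGGAC
Bid: ctcgcccaaataGGCGAT
They lie at chr2:152671626-152671643 (*Bcl2l1*, exon 2, minus strand), chr1:106640314-106640331 (*Bcl2*, exon 1, minus), chr3:95566747-95566764 (*Mcl1*, exon 1, plus), chr7:45115430-45115447 (*Bax*, exon 3, minus), chr17:27241514-27241531 (*Bak1*, exon 4, minus), chr2:127989070-127989087 (*Bcl2l11*, exon 3, plus), chr7:16047698-16047715 (*Bbc3*, exon 3, plus) and chr6:120874259-120874276 (*Bid*, exon 4, minus), with exons numbered in the canonical transcript. *Bbc3* was the only one of these 8 with an alanine codon, GCG, in place of a glycine codon. The match describes letters only and does not show binding. Genes other than the members were not searched, so the share of all genes with the pattern is not known.

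Across the 10 members, the 4A1 KO libraries were not shifted one way. *Mcl1* and *Bbc3* rose and *Bcl2a1b* and *Bid* fell, while the other 6 were not called. A gene was called where edgeR's quasi-likelihood test, fitted over all 14218 genes that passed the filter on low counts, gave an adjusted p under 0.05 and a log2 fold change beyond 0.5 in either direction. By that rule 2 of 10 members increased and 2 decreased, beside 11.6% and 13.7% of all genes tested, counts that with 10 genes lie close to this background. On the adjusted p alone 7 members passed, 5 higher and 2 lower, beside 26.3% and 26.7% of all genes. Without the replicate block 4 passed, 2 higher (*Mcl1* and *Bax*) and 2 lower (*Bcl2a1b* and *Bid*). The median log2 fold change was 0.15 over the members and 0.01 over all genes. In TPM (a value scaled by transcript length and library size, made by another tool from the same reads), limma on log2(TPM + 1) called the same 4 genes in the same directions, beside 8.42% of genes increased and 11.8% decreased. Over all 8 libraries, 2 members had every 4A1 KO value in CPM above every control value and 2 had every 4A1 KO value below, beside 17.3% and 19.6% of all genes.

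**Figure D1:**
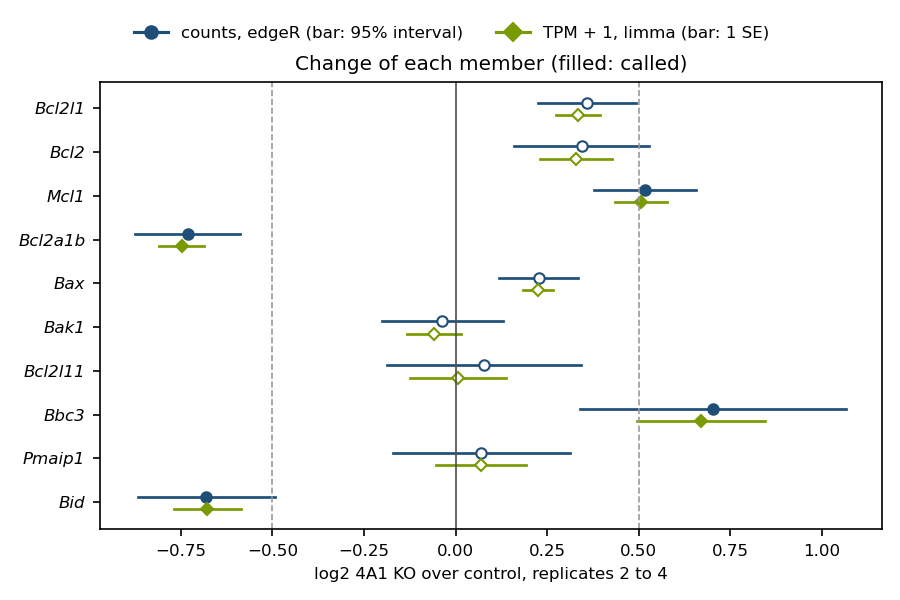
Change of each member in 4A1 KO relative to control in replicates 2 to 4, on a log2 axis, from counts (circles, with 95% intervals) and from TPM + 1 (diamonds, with 1 SE). Filled symbols are called genes and dashed lines mark the threshold of 0.5; *Bcl2a1b* and *Bid* lie to the left of it and *Mcl1* and *Bbc3* to the right, and the counts and TPM values of each gene lie side by side.

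*Bcl2l1* (ENSMUSG00000007659, chr2:152622582-152673655, minus strand), which encodes BCL-XL, was measured at 325, 261, 399.6 and 354 CPM in controls 1 to 4 and at 459, 372, 463 and 452 CPM in 4A1 KO 1 to 4. Each 4A1 KO library was above the control of its own number, yet the groups overlapped, since 4A1 KO 2 lay below control 3. The log2 fold change was 0.36 (SE 0.06, 95% interval 0.22 to 0.49, edgeR adjusted p = 9.8e-04), which passed the adjusted p and not the fold threshold.

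*Bcl2* (chr1:106465908-106642060, minus strand), the founding prosurvival gene, was at 79.1, 67.0, 102 and 111 CPM in controls and 97.6, 103.2, 118 and 128 CPM in 4A1 KO. The groups again overlapped and the difference was of similar size, 0.34 on the log2 scale (SE 0.08, edgeR adjusted p = 0.0067). In TPM, where *Bcl2l1* gave 0.33 (limma adjusted p = 0.0060) and *Bcl2* gave 0.33 (limma adjusted p = 0.034), neither was called. Without the replicate block both lost the adjusted p, at 0.12 for *Bcl2l1* and 0.19 for *Bcl2* in counts (edgeR) and 0.16 and 0.24 in TPM (limma). The value of *Bcl2* leaned on replicate 2, without which it was 0.21 in counts (edgeR adjusted p = 0.036) and 0.19 in TPM (limma adjusted p = 0.11), and without replicate 3 its limma adjusted p was 0.060.

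*Mcl1* (chr3:95566026-95570487, plus strand) encodes a prosurvival protein that is turned over quickly. It was at 354, 314, 282 and 322 CPM in controls and 475, 455, 448 and 409.5 CPM in 4A1 KO. The lowest 4A1 KO library was above the highest control library, and control 3 was the lowest of all. The log2 fold change was 0.52 (SE 0.06, 95% interval 0.38 to 0.66, edgeR adjusted p = 1.6e-04). In TPM the 4 controls were at 188, 171, 154 and 183 and the 4A1 KO at 246, 245, 246 and 229.7, a log2 difference of 0.51 (limma adjusted p = 0.0026). The value sat at the fold threshold, so the call was lost without replicate 3, at 0.45, and with all 8 libraries, at 0.49, both with an adjusted p under 0.05, and in TPM without replicate 2, at 0.50, without replicate 3, at 0.42, and with all 8 libraries, at 0.48.

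*Bcl2a1b* (ENSMUSG00000089929, chr9:89081262-89089889, plus strand) is a mouse copy of the gene for A1, a prosurvival protein of activated lymphocytes. Mice carry several copies of this gene, and 3 of them with a coding sequence of 516 bases were read in these cells. The coding sequence of *Bcl2a1b* differed from that of *Bcl2a1d* at 6 bases (98.8% identity) and from that of *Bcl2a1a* at 11 bases (97.9% identity). The first 60 coding bases are printed to show how alike the copies are at the start of the coding sequence, with the positions that differ among the copies in capitals.
Bcl2a1a: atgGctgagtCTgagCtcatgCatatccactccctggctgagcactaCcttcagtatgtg
Bcl2a1b: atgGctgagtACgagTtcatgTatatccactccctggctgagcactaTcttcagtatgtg
Bcl2a1d: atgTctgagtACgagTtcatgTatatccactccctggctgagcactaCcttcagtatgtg
These stretches lie in exon 1 at chr9:88839104-88839163 (plus strand), chr9:89081413-89081472 (plus strand) and chr9:88613713-88613772 (minus strand) of GRCm39. Of the 50-base windows of the canonical *Bcl2a1b* transcript, 57.1% occurred unchanged in *Bcl2a1d* and 40.9% in *Bcl2a1a*, and 21.5% occurred in no other gene. How the counting treated reads with several equal matches is not given in the sources used here. The annotated gene Gm29094 also shares 401 of the 826 exonic bases of *Bcl2a1b* on the same strand.

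*Bcl2a1b* was at 209.6, 221, 206 and 197 CPM in controls 1 to 4 and at 118, 123, 118 and 134 CPM in 4A1 KO 1 to 4. The lowest control exceeded the highest 4A1 KO library by a wide margin, and the log2 fold change was -0.73 (SE 0.06, 95% interval -0.87 to -0.59, edgeR adjusted p = 3.4e-05). In TPM the controls were at 583, 627, 585 and 595 and the 4A1 KO at 324, 343, 339 and 395, a log2 difference of -0.75 (limma adjusted p = 7.4e-04).

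*Bcl2a1d* was at 134, 141, 151 and 135 CPM in controls and 69.9, 71.0, 71.6 and 83.6 CPM in 4A1 KO, with a log2 fold change of -0.92 (SE 0.07, edgeR adjusted p = 2.6e-05). *Bcl2a1a* was counted at 1.45 to 1.82 CPM in controls and fell by 0.86 on the log2 scale (SE 0.21, edgeR adjusted p = 0.0069), a call that was lost with DESeq2 (adjusted p = 0.087) and in edgeR's test against a log2 fold change of 0.5 (adjusted p = 0.12). *Bcl2a1c* did not pass the filter on low counts. With the counts of all 4 copies summed, which leaves aside the split between them, the log2 fold change was -0.80 (SE 0.06, edgeR adjusted p = 2.0e-05). The counts and TPM split the copies differently: *Bcl2a1a* took 0.352% to 0.528% of the summed counts and 8.21% to 8.76% of the summed TPM, so its own level is uncertain, while *Bcl2a1b* took 57.4% to 63.1% of counts and 52.9% to 57.4% of TPM. In the 4 control libraries *Bcl2a1b* held 57.4% to 60.8% of the counts, and in the 4 4A1 KO libraries 61.4% to 63.1%.

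TPM values allow levels of different genes to be compared, and in them the prosurvival transcripts had another make-up in 4A1 KO. For the *Bcl2a1* copies these levels depend on how reads with several equal matches were treated, which is not given in the sources used here. The copies of *Bcl2a1* together were, in controls 1 to 4, 69.7%, 74.3%, 69.3% and 68.9% of the summed prosurvival TPM (*Bcl2l1*, *Bcl2*, *Mcl1*, *Bcl2l2* and the *Bcl2a1* copies). In 4A1 KO 1 to 4 they were 48.6%, 51.9%, 48.9% and 53.1%. *Bcl2l1* took 13.0% to 18.9% in controls and 23.8% to 28.0% in 4A1 KO, *Mcl1* took 9.65% to 12.4% and 17.4% to 21.3%, and *Bcl2* took 1.15% to 1.93% and 2.101% to 2.64%. None of these 4 shares overlapped between the genotypes. The shares are bound to each other, since 1 can only rise where others fall.

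The ratio of *Bcl2l1* to the *Bcl2a1* copies was 0.232, 0.175, 0.272 and 0.251 in controls and 0.572, 0.459, 0.574 and 0.494 in 4A1 KO. The ratio of *Bcl2l1* to *Bcl2*, by contrast, ran from 8.96 to 11.9 in controls and 9.93 to 13.2 in 4A1 KO, with overlap. The summed prosurvival level was 1508 to 1596 TPM in controls and 1151 to 1321 TPM in 4A1 KO. These shares and ratios are descriptions of 4 libraries per genotype and carry no test.

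**Figure D2:**
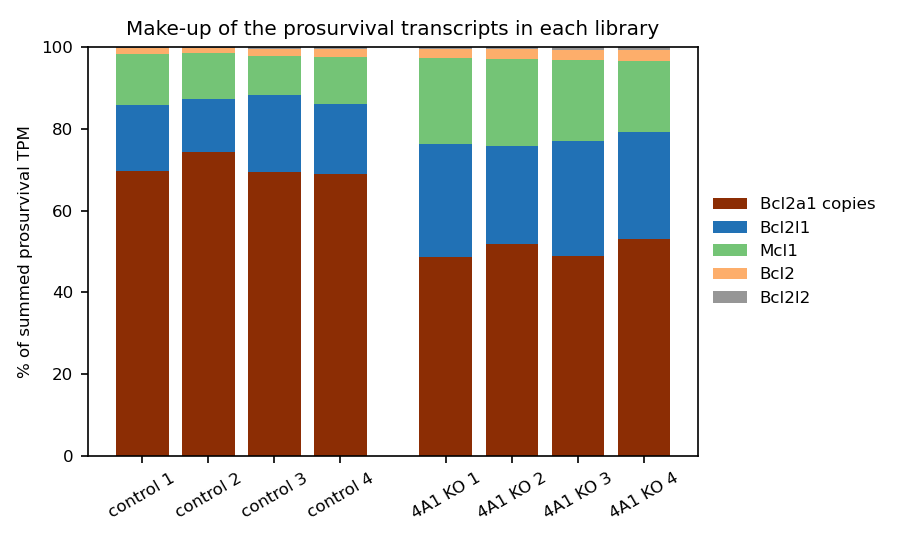
Make-up of the prosurvival transcripts in each of the 8 libraries, as percent of their summed TPM. The *Bcl2a1* copies fill 68.9% to 74.3% of the control bars and 48.6% to 53.1% of the 4A1 KO bars, and the shares of *Bcl2l1* and *Mcl1* are larger in each 4A1 KO bar.

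*Bax* and *Bak1* encode the proteins that form pores in the outer membrane. *Bax* (chr7:45111015-45116325, minus strand) was at 155, 147, 146 and 137 CPM in controls and 206, 167, 169 and 167 CPM in 4A1 KO. All 4A1 KO libraries were above all controls, and 4A1 KO 1, which the tests left out, was the highest. The log2 fold change was 0.23 (SE 0.05, 95% interval 0.12 to 0.33, edgeR adjusted p = 0.0036), under the fold threshold, and in TPM it was also 0.23 (limma adjusted p = 0.0062).

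*Bak1* (chr17:27238784-27247983, minus strand) was at 101, 96.4, 111 and 90.9 CPM in controls and 97.3, 101, 92.5 and 96.5 CPM in 4A1 KO. The groups lay over each other, with a log2 fold change of -0.04 (SE 0.07, edgeR adjusted p = 0.70) and a 95% interval of -0.20 to 0.13. The TPM ratio of *Bax* to *Bak1* was 2.76 to 3.27 in controls and 3.50 to 4.54 in 4A1 KO. The summed effector level was 372 to 397 TPM in controls and 424 to 479 TPM in 4A1 KO, and the summed prosurvival level divided by it was 3.90, 4.03, 4.02 and 4.28 for controls 1 to 4, against 2.45, 2.72, 2.91 and 3.06 for 4A1 KO 1 to 4. No 4A1 KO library reached the lowest control in that ratio. Transcript ratios say nothing of the ratios of the proteins.

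Of the BH3-only genes, *Bbc3* (chr7:16042318-16052130, plus strand), which encodes PUMA and is a well-known target of p53, was at 16.9, 18.9, 8.78 and 11.4 CPM in controls and 30.2, 22.1, 20.7 and 18.3 CPM in 4A1 KO. Each 4A1 KO library was above its own control, but 4A1 KO 4 lay below control 2. The log2 fold change was 0.70 (SE 0.16, 95% interval 0.34 to 1.07, edgeR adjusted p = 0.0056). Within pairs the log2 difference was 0.84, 0.23, 1.23 and 0.69 in replicates 1 to 4, so replicate 3, with the lowest control, gave the widest gap. Without replicate 3 the log2 fold change was 0.46 and the gene was not called, and without the replicate block, that is with genotype alone in the fit, it was 0.65 with an edgeR adjusted p of 0.080. The TPM were 17.7, 20.03, 9.73 and 13.0 in controls and 31.4, 23.3, 23.3 and 20.6 in 4A1 KO, which did not overlap, with a log2 difference of 0.67 (limma adjusted p = 0.021, and 0.055 without the block).

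*Bid* (chr6:120862525-120894171, minus strand) encodes the protein that links death receptors to mitochondria once caspase 8 has cleaved it. It was at 153, 195, 157 and 138 CPM in controls and 87.1, 104, 94.9 and 103.4 CPM in 4A1 KO. All 4A1 KO libraries were below all controls, and the log2 fold change was -0.68 (SE 0.08, 95% interval -0.87 to -0.49, edgeR adjusted p = 1.7e-04). In TPM the log2 difference was -0.68 (limma adjusted p = 0.0024). Of its exonic bases, 3059 of 9796 overlap *Bcl2l13* on the opposite strand, and the authors counted reads by strand.

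*Bcl2l11* (chr2:127967958-128004476, plus strand) encodes BIM, a BH3-only protein that sets lymphocyte numbers. It was at 32.7, 19.1, 15.8 and 17.97 CPM in controls and 33.9, 22.9, 18.9 and 14.7 CPM in 4A1 KO. Replicate 1 was the highest library in each genotype. Over replicates 2 to 4 the log2 fold change was 0.08 (SE 0.12, edgeR adjusted p = 0.60), with a 95% interval of -0.19 to 0.34. The *Bbc3* value of 0.70 lies outside it, but the interval of *Bbc3* itself began at 0.34. These genes were not tested against each other. *Pmaip1*, which encodes NOXA, a partner of MCL1, was at 34.0, 31.4, 24.4 and 41.3 CPM in controls and 42.4, 37.3, 29.2 and 33.9 CPM in 4A1 KO. The gene was higher in 4A1 KO in 3 of 4 pairs and lower in replicate 4. Its log2 fold change was 0.07 (SE 0.11, 95% interval -0.17 to 0.31, edgeR adjusted p = 0.61). Replicate 4 ran against the other pairs for both genes, and without it the log2 fold changes were 0.26 for *Bcl2l11* (edgeR adjusted p = 0.044) and 0.25 for *Pmaip1* (edgeR adjusted p = 0.019), still under the fold threshold.

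**Figure D3:**
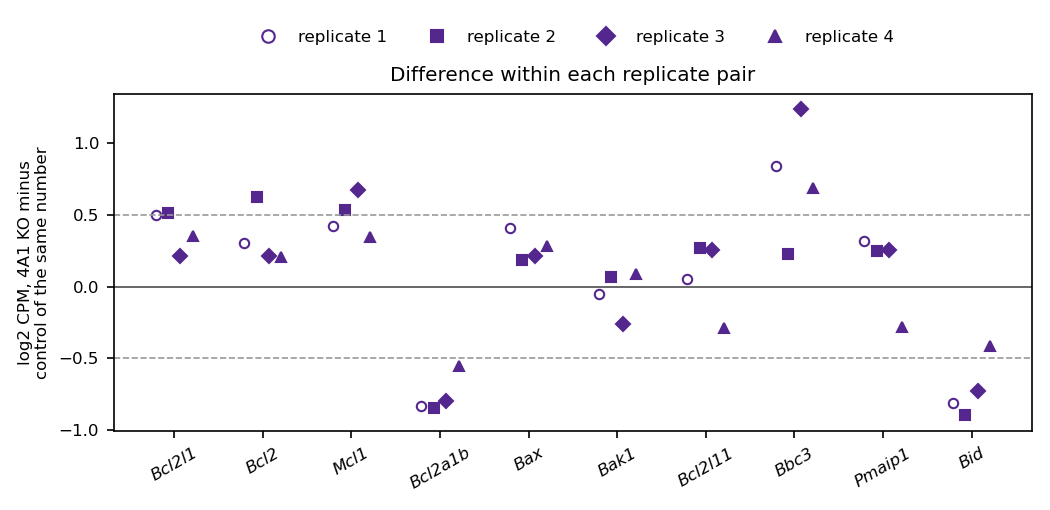
Log2 difference in CPM between the 4A1 KO and control libraries of the same replicate number, for each member and each of the 4 pairs (open circle, replicate 1). All 4 points lie below 0 for *Bcl2a1b* and *Bid* and above 0 for *Bcl2l1*, *Bcl2*, *Mcl1*, *Bax* and *Bbc3*; *Bbc3* spans 0.23 to 1.23, and *Bak1*, *Bcl2l11* and *Pmaip1* lie on both sides of 0.

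Summed over the 4 BH3-only members, the level was 169 to 218 TPM in controls and 135 to 150.2 TPM in 4A1 KO, while without *Bid* it was 34.5 to 60.4 TPM and 52.4 to 79.6 TPM, with overlap. The ratio of prosurvival to these BH3-only transcripts was 6.98 to 9.42 in controls and 7.71 to 9.16 in 4A1 KO, so the 4A1 KO libraries lay within the range of the controls. Without *Bid* it was 25.0 to 46.3 in controls and 14.7 to 25.2 in 4A1 KO, and only 4A1 KO 4 reached the controls.

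In control libraries the order of TPM levels (mean ± SD, n = 4) began with *Bcl2a1b* (598 ± 20.6), *Bax* (289.0 ± 6.11), *Bcl2l1* (254 ± 44.8), *Mcl1* (174 ± 15.2), *Bid* (138 ± 19.1) and *Bak1* (94.2 ± 7.62). It ended with *Bcl2* (24.0 ± 6.01), *Pmaip1* (22.9 ± 5.35), *Bbc3* (15.1 ± 4.63) and *Bcl2l11* (12.1 ± 5.21). The ranges of neighbours overlapped for *Bax* and *Bcl2l1*, for *Mcl1* and *Bid*, and among the 4 least abundant genes. In 4A1 KO *Bcl2a1b* (350.3 ± 31.0) and *Bax* (349.6 ± 29.2) overlapped at the top, *Bcl2l1* (323 ± 34.0) overlapped *Bax*, and *Bak1* (90.2 ± 3.50) came before *Bid* (83.1 ± 9.33), with overlap. *Bbc3* (24.6 ± 4.67) stood level with *Pmaip1* (24.6 ± 3.18), and *Bcl2l11* (12.3 ± 5.59) was again last. The place of *Bcl2a1b* in both orders depends on how reads shared with the other copies were treated.

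**Figure D4:**
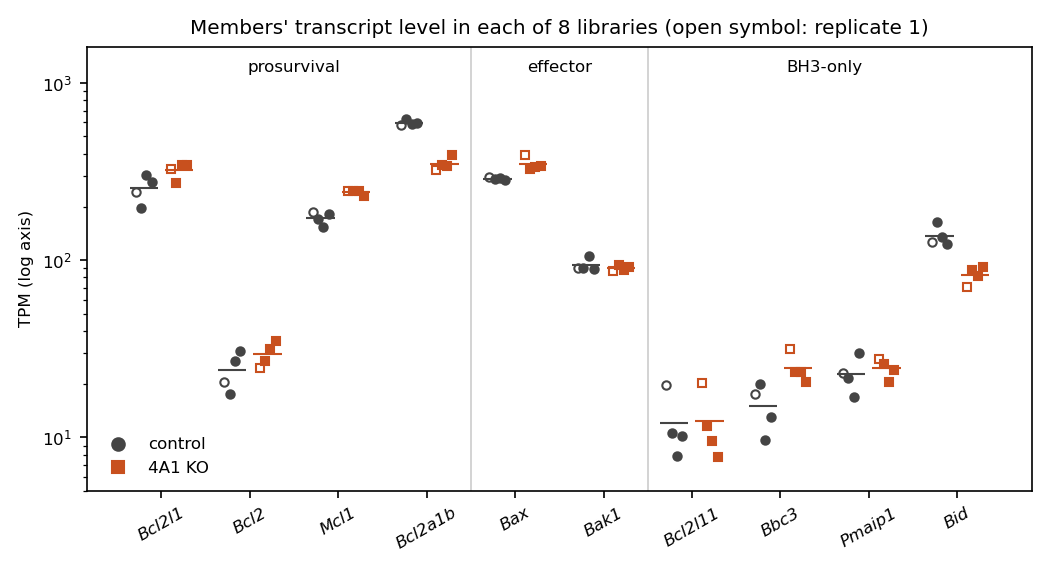
TPM of each member in the 8 libraries on a log axis, controls as circles and 4A1 KO as squares, with the mean of 4 libraries as a line and replicate 1 as an open symbol. *Bcl2a1b* stands alone at the top of the controls at 583 to 627 TPM and meets *Bax* in 4A1 KO, and *Bcl2l11* of replicate 1 is the highest in both genotypes.

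Whether the genotype effect on a member differed between the sexes or batches was asked of all 8 libraries. No member passed at the adjusted p for either term (smallest 1 for sex and 0.999 for batch, edgeR). For sex, *Bbc3* had the lowest p of the members, with a log2 difference of the effects, female minus male, of -0.56 (SE 0.21, edgeR adjusted p = 1). Over all genes 405 were under 0.05 before adjustment for sex and 0 after it, and for batch 610 before it and 1 after it.

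Other genes of the pathway, in lists that hold 50 genes, were lower in 4A1 KO more often than higher. Of the 42 tested, 1 was called increased and 13 decreased, beside the 11.6% and 13.7% of all genes. On the adjusted p alone 10 were higher and 21 lower, beside 26.3% and 26.7% of all genes. The decreased genes include *Bcl2a1a* and *Bcl2a1d*, which share most of their sequence with *Bcl2a1b*, and numbered 11 with the counts of the copies summed. The median log2 fold change of the 42 tested genes was -0.15. The prosurvival gene *Bcl2l2* was not called, at 0.34 (SE 0.09, edgeR adjusted p = 0.0094), and *Bcl2l10* and the BH3-only gene *Hrk* were at 0 in the counts of every library. The increased gene was *Bmf*, a BH3-only gene, at 2.20, 1.39, 0.818 and 0.620 CPM in controls and 3.26, 3.92, 1.70 and 1.19 CPM in 4A1 KO, with a log2 fold change of 1.20 (SE 0.21, edgeR adjusted p = 0.0013). Its groups overlapped, its level was near 1 CPM, and the call was lost without the replicate block. The BH3-only gene *Bad* fell by 0.69 in counts (SE 0.11, edgeR adjusted p = 8.5e-04) and was not called in TPM, at -0.47.

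Genes that act after the mitochondrial step made up most of the remaining decreases. Of 8 genes of the apoptosome and caspases, 4 were decreased, beside 13.7% of all genes tested. The initiator *Casp9* was at 12.4, 14.6, 9.86 and 10.7 CPM in controls and 6.71, 8.28, 6.76 and 5.86 CPM in 4A1 KO, without overlap. It fell by 0.75 on the log2 scale (SE 0.11, edgeR adjusted p = 4.3e-04), while *Apaf1*, the scaffold of the apoptosome, was not called, at 0.27 (edgeR adjusted p = 0.0096).

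*Birc5*, which encodes survivin, an IAP family protein with a main role in mitosis, was at 19.5, 46.4, 27.6 and 45.1 CPM in controls and 1.11, 3.66, 2.64 and 14.3 CPM in 4A1 KO. The log2 fold change of -2.77 (SE 0.33, edgeR adjusted p = 1.5e-04) was the only call among 5 IAP genes. In the death receptor list, 6 of 7 genes were tested and 2 were decreased, beside 13.7% of all genes tested. These were the adaptor genes *Fadd* (-0.79, SE 0.09, edgeR adjusted p = 9.9e-05) and *Tradd* (-0.69, SE 0.08, edgeR adjusted p = 1.5e-04). The nuclease gene *Endog* fell by 0.72, and among the more distant relatives of the family *Bnip3* fell by 0.73 and *Bcl2l12* by 0.55, with edgeR adjusted p values of 8.6e-04, 3.2e-04 and 0.0025. The 4 outer membrane partners, the VDAC genes and *Mtch2*, all passed the adjusted p with lower values in counts, beside 26.7% of all genes, and none reached the fold threshold. In TPM *Mtch2* did not pass it (limma adjusted p = 0.15). Of 4 genes for turnover of MCL1, 3 passed it with higher values, beside 26.3% of all genes, and none was called. With all 8 libraries only 1 of these 4 passed it.

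**Figure D5:**
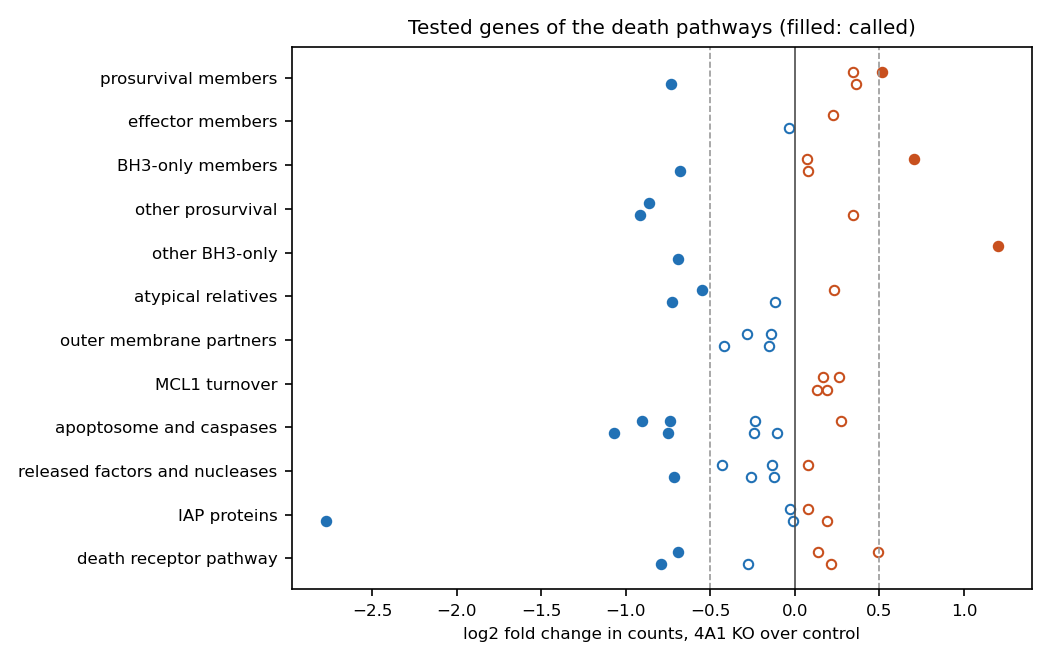
Log2 fold change in counts, 4A1 KO over control in replicates 2 to 4, of the tested members and other genes of the death pathways, 1 row per gene list and 1 point per gene (filled, called; dashed lines, threshold of 0.5). The called points of the other lists lie to the left of 0 except *Bmf* at 1.20, and *Birc5* is the farthest left at -2.77.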

How the data were processed

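RNA-seq was made from activated splenic B cells of 4 control and 4 4A1 KO mice. According to the submitters' processing notes and the study's methods, the authors trimmed 50-base paired reads with Trim Galore 0.6.6, aligned them to GRCm39 with HISAT2 2.1.0, deposited raw read counts per gene (Seqmonk, merged isoforms, strand-specific) and deposited TPM made with StringTie 2.1.1. Treatment of reads with several matches is not given in the sources used here. Coordinates and sequences are from GENCODE M39 on the same build, and all 10 gene IDs matched.

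The members and lists were chosen with earlier results of these data known. Counts of replicates 2 to 4 were tested with edgeR 4.0.16 in R 4.3.3 (filterByExpr, TMM, quasi-likelihood F test, batch and sex as covariates, Benjamini-Hochberg over all genes). In these 6 libraries the covariates equal the replicate number as a block. Same-numbered libraries, which share sex and batch by the labels, deviated together (r = 0.59, 0.50 and 0.43 in replicates 2, 3 and 4). CPM printed use TMM factors of 8 libraries, and a 95% interval uses the model's degrees of freedom. TPM were tested with limma 3.58.1 on log2(TPM + 1) for genes whose mean reached 1 TPM, so fold changes of low genes are understated there. Alternatives were other normalizations, DESeq2 1.42.0, other filters, all 8 libraries, dropping 1 pair at a time, no replicate block, a test against a log2 fold change of 0.5 (glmTreat) and, for TPM, a pseudocount of 0.1. The scripts were tested on simulated data. Beside the members, the genes named were the other Bcl2a1 copies, Eif4a1, of each other list at most 3 called genes, those of largest change among those reaching a mean of 1 CPM, and the 2 most abundant markers of a list. Some genes under this rule are not reported here. Bcl2l2, Apaf1, Bcl2l10, Hrk, Mtch2, Cd79a, Cd79b, Cd22, Bcl2l13 and Gm29094 fall outside that rule and were named after their values were seen. Intervals cover counting error and the spread of the genotype difference between replicate pairs of 1 experiment. Spread between animals that a pair has in common is taken out by the block.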

Additional observations from a re-analysis of the deposited data

Results flagged for a closer look

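In 5 of 40 sets of 4 libraries (10 members, 2 genotypes, CPM and TPM) a library lay far from the other 3, judged by its distance to the nearest one as a part of the full range. Chance alone gives about 2 of 40. 4A1 KO 2 was low in *Bcl2l1* CPM (0.881) and 4A1 KO 4 was low in *Mcl1* TPM (0.951). 4A1 KO 1 was high in *Bax*, both in CPM (0.945) and in TPM (0.847), and it was not among the libraries tested. Control 3 was high in *Bak1* TPM (0.936).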

How the results depend on the processing

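*Bcl2a1b* kept its call in all 13 alternatives on counts and all 7 on TPM (log2 -0.82 to -0.68 in counts), and *Bid* kept its call in all but the test against a fold of 0.5 (glmTreat adjusted p = 0.061). Of the values per gene, 199 kept direction and side of the threshold, 15 lost the threshold and 10 changed sign.

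The members called increased in counts numbered 1 without the replicate block, 1 with all 8 libraries, 0 with glmTreat and 0 to 2 when 1 replicate pair was left out. *Mcl1* had a glmTreat adjusted p of 0.67 and *Bbc3* of 0.22. The members called decreased numbered 1 with glmTreat. In TPM the increased members numbered 1 without the filter on low values, 1 without the replicate block, 1 with all 8 libraries and 0 to 2 when a pair was left out. Without that filter the limma adjusted p was 0.12 for *Bbc3* and 0.13 for *Bcl2*. Other pathway genes increased numbered 2 with upper quartile scaling, 0 without the replicate block, 2 with all 8 libraries and 1 to 2 when a pair was left out, and the decreased ones 8 with glmTreat. All genes called numbered 3596 and, with glmTreat, 1627. Without the replicate block 3000 genes were called, and among the members no call but that of *Bbc3* changed, while *Bcl2l1* and *Bcl2* were no longer past the adjusted p.

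Values near 0 changed sign when a pair was left out: in counts -0.019 to 0.26 for *Bcl2l11*, -0.021 to 0.25 for *Pmaip1* and -0.097 to 0.082 for *Bak1*, and in TPM -0.12 to 0.19, -0.026 to 0.25 and -0.11 to 0.043. The cause of these changes was not tested. Fits without a pair rest on 2 libraries per genotype.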
